A study of Mus musculus with 8 samples.

Results

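The serpins are a family of 65 mouse genes in the deposited count table, taken as every one of its 27179 listed genes whose symbol begins with Serpin, a clade letter from a to i and a number. They fall into 9 clades, of which clade B with 28 listed genes and clade A with 26 are by far the largest. Of the 65, 51 had at least 1 count in the 8 libraries and 14 had none, and 27 were counted deeply enough to be tested between the populations. Another 4 serpin pseudogenes that RefSeq names (Serpina3d-ps, Serpina3e-ps, Serpina3l-ps and Serpinb1-ps1) were not analysed here.

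Most serpins are suicide inhibitors of serine proteases. The target protease cuts an exposed reactive loop of the serpin, the loop inserts into the body of the molecule, and the protease is left trapped and distorted in a complex that cannot release it. Some serpins inhibit cysteine cathepsins instead, and a few have lost the inhibitory role and serve as chaperones, hormone carriers or signalling factors. In the lung, serpins hold back neutrophil elastase, the plasminogen activators, thrombin and the first component of complement, so they set where these enzymes can act in tissue.

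Bulk RNA-seq was carried out on 4 libraries of a QZ1-hi population and 4 of a QZ1-lo population sorted from lungs of C57BL/6 mice (C57BL/6J in the study's methods) carrying an Eml4-Alk rearrangement, given as a translocation in the labels, which an adenovirus delivering Cas9 and guide RNAs had induced in the lung. All mice, aged 18 to 22 weeks and 11 to 12 weeks after induction, had received 4.5 nmol of QZ1-(PEG2K) in a tail vein 2 h before the lungs were taken, and QZ1 is a quenched probe that becomes fluorescent and tags nearby cells once proteases cut its linker. Live cells that stained for neither CD45 nor CD11b were divided by QZ1 signal, with at least 100000 cells collected for each population. Both populations therefore come from tumor-bearing, probe-treated lungs, each is a mixture of cell types, and no healthy lung enters the comparison.

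The libraries held between 18380918 and 26847938 counts, and their totals did not separate the populations (two-sided exact permutation test, p = 0.943, 4 against 4 libraries). Mitochondrial-genome and ribosomal RNA genes took up 34.0% to 65.6% of the counts, at 43.7%, 62.8%, 52.0% and 65.6% in QZ1-hi and 34.0%, 53.2%, 37.0% and 43.3% in QZ1-lo. Their mean share was thus higher in QZ1-hi (56.0% ± 10.1 against 41.9% ± 8.50, SD, n = 4), with libraries that overlapped. Levels below are CPM, gene counts scaled to a common library size with edgeR's TMM factors, and a floor of 3 counts corresponded to 0.0894 to 0.179 CPM, which covers counting error only. Log2 fold changes are QZ1-hi minus QZ1-lo from edgeR's quasi-likelihood test, given with their standard error (SE), and a gene was called at a Benjamini-Hochberg adjusted p under 0.05 over all 15583 genes tested. Nothing in the labels says that the 4 libraries of a population came from separate mice, so p-values measure the spread between these libraries. In bulk RNA, fewer cells of a type and less RNA per cell cannot be told apart.

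Serpin counts were concentrated in a few genes. The family held 142530 counts over all libraries and the 6 with the most counts held 74.4% of the total. The summed serpin level was 949, 1027, 1036 and 818 CPM in the 4 QZ1-hi libraries and 658, 646, 612 and 527 CPM in the 4 QZ1-lo libraries. On this scale no QZ1-lo library reached any QZ1-hi library. As a share of all counts, which mitochondrial and ribosomal RNA dilute to different extents, serpins took up 0.0539% to 0.104% in QZ1-hi and 0.0612% to 0.0889% in QZ1-lo, and those ranges overlapped. As a share of the counts outside those RNAs the ranges were again apart, at 0.157% to 0.208% in QZ1-hi and 0.108% to 0.135% in QZ1-lo.

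Divided by exon length, which makes levels comparable between genes, the order of the serpins differed between the populations. In QZ1-hi, Serpinh1 (78.9 ± 20.1 CPM per kilobase of exon, SD, n = 4) and Serping1 (77.5 ± 28.8) led and did not differ beyond their spread. Serpina3n (40.6 ± 5.83), Serpina3g (32.4 ± 7.34) and Serpinb6b (24 ± 4.34) came next, with mean ± SD ranges that overlapped between neighbors. In QZ1-lo, Serpinb9 (42.4 ± 9.32) and Serpinb6b (41.7 ± 3.15) had the highest means, followed by Serpinh1 (32.8 ± 8.91), Serpina3g (22.6 ± 6.45) and Serpinb6a (18.7 ± 0.931). The mean ± SD ranges of Serpinb9, Serpinb6b and Serpinh1 overlapped. By mean, the collagen chaperone and the C1 inhibitor thus headed the list in QZ1-hi. In QZ1-lo intracellular granzyme inhibitors did, but not beyond the spread of the collagen chaperone.

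**Figure D1:**
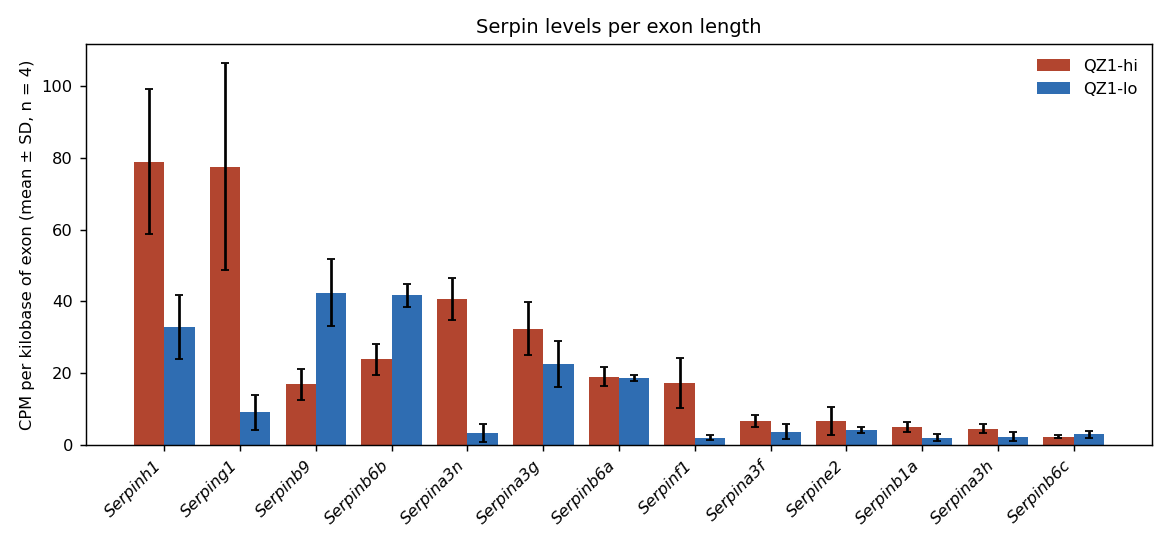
Mean level of 13 tested serpins that reached 2 CPM per kilobase of exon in either population (bars, linear axis from 0, with SD over 4 libraries), ordered by their higher level. Serpinh1 and Serping1 stand highest in QZ1-hi at 78.9 and 77.5, and Serpinb9 and Serpinb6b in QZ1-lo at 42.4 and 41.7 CPM per kilobase.

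Of the 27 serpins tested, 7 were called higher in QZ1-hi (25.9%), where 9.88% of all genes tested were, and 6 were called lower (22.2%), where 8.21% of all genes were. The higher serpins included Serpina3n, Serping1, Serpinf1, Serpina3c, Serpinh1 and Serpinb1a, and the lower ones were Serpina9, Serpinb9g, Serpinb9d, Serpind1, Serpinb9 and Serpinb6b. In 8 serpins every QZ1-hi library lay above every QZ1-lo library, against 11.9% of all genes, and in 7 every QZ1-hi library lay below, against 10.7%. The median log2 fold change was 0.53 over the 27 serpins and 0.02 over all genes tested. Both directions were thus called more often among the tested serpins than among all genes, but 38 serpins did not pass the filter on low counts, and the passing ones include genes that passed through the population in which they are high.

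The division of calls rested on the scaling in part. When counts were scaled by library size alone, the median over all genes moved to -0.44, and 3 serpins were called higher and 6 lower. Those that lost their call there included Serpina3c, Serpinb1a and Serpinh1, which still had a positive log2 fold change. Over all genes the same scaling gave 882 higher and 2509 lower calls in place of 1540 and 1280.

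**Figure D2:**
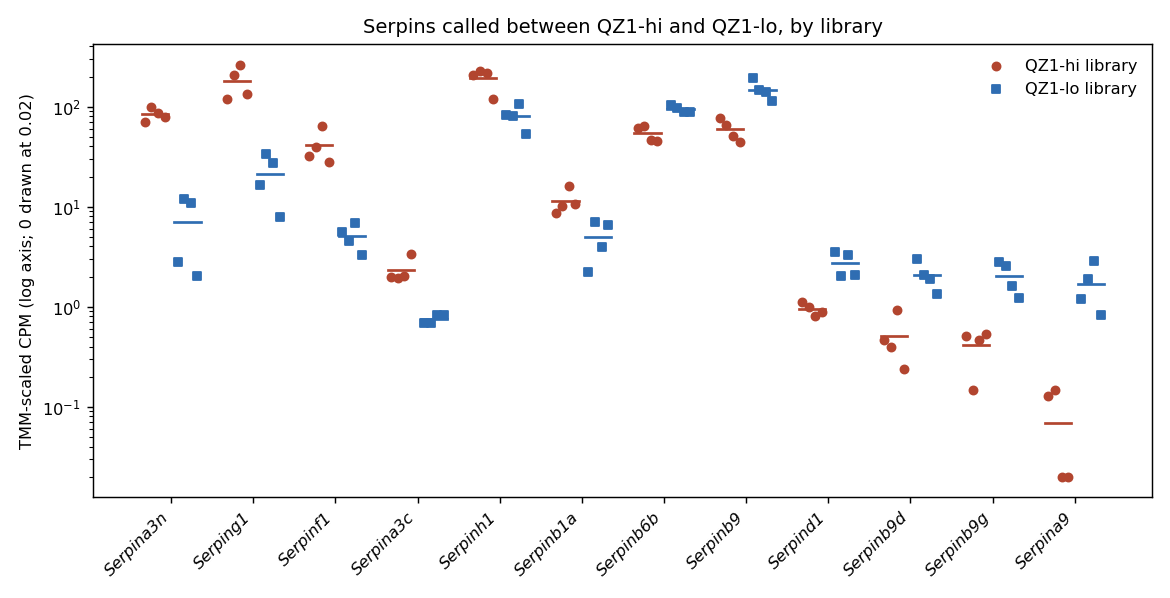
TMM-scaled CPM of 12 called serpins in each library (log axis), with QZ1-hi libraries as circles, QZ1-lo libraries as squares and population means as lines. From left to right the log2 fold change falls from 3.59 for Serpina3n to -4.42 for Serpina9, the circles lie above the squares for the first 6 genes and below for the last 6, and the 2 QZ1-hi libraries without a Serpina9 count are drawn at 0.02.

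Among the proteases that serpins hold back at the start of fibrinolysis, the plasminogen activator tPA (Plat) was higher by a log2 fold change of 3.14 (SE 0.36, edgeR adjusted p = 0.000305), from 4.77 to 42.0 CPM on average. The other activator, uPA (Plau), at 21.4 CPM in QZ1-hi and 17.2 in QZ1-lo, was not called (0.31, SE 0.24, edgeR adjusted p = 0.444). Its receptor Plaur was at 86.6 and 90.2 CPM and was not called either (-0.06, SE 0.14, edgeR adjusted p = 0.833).

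Serpine2, or protease nexin 1, inhibits thrombin and plasminogen activators at the cell surface. It stood at 102, 50.7, 35.3 and 32.0 CPM in QZ1-hi and at 36.1, 40.8, 39.8 and 24.1 CPM in QZ1-lo. The populations overlapped, 1 QZ1-hi library was well above the rest, and the gene was not called (0.65, SE 0.33, edgeR adjusted p = 0.229). Without QZ1-hi replicate 1 its log2 fold change was 0.16. Serpinb2, an inhibitor of uPA, was low and variable, ranging from 0.119 to 1.85 CPM in QZ1-hi and from 0.326 to 1.49 in QZ1-lo, and was not called (0.07, SE 0.84, edgeR adjusted p = 0.973), with a sign that turned under several alternatives.

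Serpind1 encodes heparin cofactor II, a thrombin inhibitor that dermatan sulfate and heparan sulfate activate. It stood at 1.10, 0.988, 0.809 and 0.894 CPM in QZ1-hi and at 3.49, 2.03, 3.26 and 2.09 CPM in QZ1-lo. Every QZ1-hi library was below every QZ1-lo library, with a log2 fold change of -1.51 (SE 0.42, edgeR adjusted p = 0.0278). The call was lost in limma-voom and when QZ1-hi replicate 2, 3 or 4 or QZ1-lo replicate 1 or 3 was left out (adjusted p = 0.0518 to 0.102, log2 fold change -1.55 to -1.37). Its exons lie inside the gene body of Pi4ka, on the opposite strand, and the strand setting of the counting is not given in the sources used here. Serpina10, the protein Z-dependent inhibitor of factor Xa, was at 0.664 ± 0.709 CPM in QZ1-hi and 0.994 ± 0.464 in QZ1-lo and was not called (SD, n = 4; log2 fold change -0.59, edgeR adjusted p = 0.747). Antithrombin (Serpinc1) had 14 counts in all QZ1-hi libraries and 42 in all QZ1-lo libraries and was not tested.

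Thrombin itself (F2) was barely counted, at 0.0212 CPM in QZ1-hi and 0.337 in QZ1-lo. Factor VII (F7) and factor X (F10) were at 41.0 and 36.4 CPM in QZ1-hi and at 31.2 and 29.5 CPM in QZ1-lo and were not called (edgeR adjusted p = 0.459 and 0.584). Thrombomodulin (Thbd), the endothelial receptor that turns thrombin toward protein C, was higher, at 330 against 40.0 CPM (3.04, SE 0.38, edgeR adjusted p = 0.000481). The protein C receptor Procr went the other way, at 14.6 against 22.2 CPM, with every QZ1-hi library below every QZ1-lo library. It was not called (-0.61, SE 0.21, edgeR adjusted p = 0.0653).

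Serping1 is the C1 inhibitor, which blocks the C1r and C1s proteases that start the classical complement pathway and also plasma kallikrein and factor XIIa. It stood at 120, 205, 263 and 133 CPM in QZ1-hi and at 16.6, 33.6, 27.1 and 7.94 CPM in QZ1-lo. The lowest QZ1-hi library was well above the highest QZ1-lo library, and the log2 fold change was 3.08 (SE 0.41, edgeR adjusted p = 0.000619), or 8.45-fold. It kept its call in all 15 alternatives, with log2 fold changes of 2.81 to 3.39 when 1 library was left out. Its targets moved the same way, with C1ra at 2.37 (SE 0.26, edgeR adjusted p = 0.000278), C1rb at 2.25 (SE 0.30, adjusted p = 0.000629), C1s1 at 3.41 (SE 0.45, adjusted p = 0.000609) and C1s2 at 3.41 (SE 0.43, adjusted p = 0.000481) on the log2 scale.

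The balance of C1s1 and its inhibitor was not called different. C1s1 had 0.389 to 0.737 counts per Serping1 count in QZ1-hi and 0.388 to 0.476 in QZ1-lo, with overlapping libraries (two-sided exact permutation test, p = 0.114, adjusted p = 0.114). Masp1, a lectin pathway protease that Serping1 also inhibits, was at 0.974 CPM in QZ1-hi and 0.193 in QZ1-lo and was not called (2.29, SE 0.91, edgeR adjusted p = 0.117). Kallikrein (Klkb1) was at 0.886 and 1.06 CPM, also without a call (edgeR adjusted p = 0.838), and factor XII (F12) was at 0 and 0.0307 CPM.

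The Serpina3 genes are a rodent expansion of a gene that is single in humans, where its product, alpha-1-antichymotrypsin, is an acute-phase inhibitor of chymotrypsin-like proteases. All 11 listed Serpina3 genes were counted and 7 were tested. All of the 7 had a positive log2 fold change (median 1.10, against 0.02 over all genes tested). Of them 2 were called higher, where 9.88% of all genes tested were. Serpina3n, an extracellular member that inhibits cathepsin G and granzyme B among others, stood at 70.3, 98.8, 86.8 and 79.5 CPM in QZ1-hi and at 2.80, 12.0, 11.0 and 2.05 CPM in QZ1-lo. The QZ1-hi libraries were close to each other and all far above the QZ1-lo libraries. The log2 fold change was 3.59 (SE 0.50, edgeR adjusted p = 0.000726), or 12.1-fold, which ranked above 99.2% of all genes tested. It kept its call in all 15 alternatives, with 3.29 to 3.99 when 1 library was left out.

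Serpina3c, a close relative, was much less abundant, with 1.05 against 40.6 CPM per kilobase of exon for Serpina3n in QZ1-hi. It stood at 1.99, 1.93, 2.02 and 3.34 CPM in QZ1-hi and at 0.686, 0.692, 0.832 and 0.819 CPM in QZ1-lo. No libraries overlapped, and the log2 fold change was 1.61 (SE 0.45, edgeR adjusted p = 0.0305). That call was lost with library size alone (1.10, adjusted p = 0.21), without a low-count filter, and in 7 of the 8 fits that left out 1 library, the exception being QZ1-lo replicate 3 (adjusted p = 0.0529 to 0.102, log2 fold change 1.41 to 1.68). Of the stretches of 50 bases in its exons, 4.3% also occur in another gene, and 6.9% of those of Serpina3n do.

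The promoters of the pair are shown because both genes were called higher and their start regions are the most alike among the Serpina3 genes. They are the 250 bases before and 50 bases after the start of transcription, from RefSeq on GRCm38.p6, which held promoters for 54 of the 65 serpins. That of Serpina3n is at chr12:104406458-104406757 on the plus strand and that of Serpina3c at chr12:104153823-104154122 on the minus strand. Capitals in the Serpina3c sequence mark bases not matched to Serpina3n in a global alignment, while bases it lacks are not marked.
Serpina3n: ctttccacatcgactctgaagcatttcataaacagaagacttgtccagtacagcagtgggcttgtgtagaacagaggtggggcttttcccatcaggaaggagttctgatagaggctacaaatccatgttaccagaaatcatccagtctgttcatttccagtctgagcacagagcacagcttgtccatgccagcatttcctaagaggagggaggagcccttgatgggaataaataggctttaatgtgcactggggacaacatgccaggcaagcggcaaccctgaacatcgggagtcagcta
Serpina3c: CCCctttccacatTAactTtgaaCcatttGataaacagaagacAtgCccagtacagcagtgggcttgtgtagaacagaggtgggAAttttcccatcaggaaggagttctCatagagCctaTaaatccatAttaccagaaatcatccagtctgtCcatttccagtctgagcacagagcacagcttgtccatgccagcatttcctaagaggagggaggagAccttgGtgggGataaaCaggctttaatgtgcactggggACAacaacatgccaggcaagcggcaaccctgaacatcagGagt
The sequences were 89.9% identical over the alignment, with 19 mismatches and 12 gap columns. Over all 28 pairs of the 8 Serpina3 genes with a promoter in the table, identity ranged from 44.8% to 89.9% with a median of 49.6%.

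Serpina3g, an intracellular member that inhibits cysteine cathepsins and is known from activated T cells, was abundant in both populations. It stood at 61.9, 57.6, 62.4 and 91.2 CPM in QZ1-hi and at 43.3, 51.5, 31.4 and 63.6 CPM in QZ1-lo. The libraries overlapped and the gene was not called (0.52, SE 0.22, edgeR adjusted p = 0.128). Without QZ1-lo replicate 4 it was (0.70, adjusted p = 0.0477). Serpina3n had 1.14, 1.71, 1.39 and 0.872 counts per Serpina3g count in the QZ1-hi libraries and 0.0647, 0.233, 0.350 and 0.0322 in the QZ1-lo libraries. No QZ1-lo ratio reached any QZ1-hi ratio. The two-sided exact permutation test gave p = 0.0286, the smallest that 4 against 4 libraries allow, and adjusted p = 0.0381 over 4 ratios. The ratio was chosen with earlier results of these data known, so its p-value adds no independent support. The start region of Serpina3g, at chr12:104235897-104236196 on the plus strand (RefSeq, GRCm38.p6), is shown for contrast with the pair above, with capitals marking a match to the STAT motif TTCNNNGAA.
Serpina3g: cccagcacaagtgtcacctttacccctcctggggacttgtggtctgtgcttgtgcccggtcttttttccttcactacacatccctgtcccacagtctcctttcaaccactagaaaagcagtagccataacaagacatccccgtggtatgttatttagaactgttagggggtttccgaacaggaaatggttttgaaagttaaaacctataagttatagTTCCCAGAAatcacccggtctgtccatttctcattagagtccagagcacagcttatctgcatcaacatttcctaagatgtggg
That motif, searched on both strands, had no match in the Serpina3n or Serpina3c promoter and occurs in 8.3% of all 32851 promoters of this length. Among the 63 serpin promoters it occurs in 11 (17.5%), those of Serpina3f and Serpina3i included, so it is not particular to Serpina3g. A match describes the letters only.

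The other tested Serpina3 genes were not called. Serpina3f was at 15.4 ± 3.79 CPM in QZ1-hi and 8.66 ± 4.69 in QZ1-lo (0.83, SE 0.36, edgeR adjusted p = 0.152), and was called without QZ1-lo replicate 4 (1.20, adjusted p = 0.0359). Serpina3h, a pseudogene, was at 6.59 ± 1.80 and 3.34 ± 1.82 CPM, and although no libraries overlapped it missed the threshold (0.98, SE 0.45, edgeR adjusted p = 0.182). Serpina3i was at 2.69 and 1.26 CPM (1.10, SE 0.49, edgeR adjusted p = 0.166), and Serpina3m at 1.26 and 0.441 CPM (1.52, SE 1.00, edgeR adjusted p = 0.365). Below the filter, Serpina3a had 54 counts in QZ1-hi and 2 in QZ1-lo, a scaled ratio of 38.2 with a 95% counting interval of 10.1 to 323. Serpina3j had 24 and 1 (33.9, 5.53 to 1396), Serpina3k 15 and 1 (21.2, 3.26 to 893), and Serpina3b 5 and 8. These intervals cover counting error only and do not include the spread between libraries, which for Serpina3k ran from 0 to 9 counts within QZ1-hi.

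Serpina9, or centerin, is a serpin known from germinal center B cells. It had 3, 3, 0 and 0 counts in the QZ1-hi libraries and 40, 46, 79 and 20 in the QZ1-lo libraries, which is at most 0.148 CPM against 1.19, 1.87, 2.86 and 0.819 CPM. Every QZ1-hi library was at or below the floor of 3 counts and every QZ1-lo library above it. The scaled ratio of QZ1-lo to QZ1-hi was 21.8 (95% counting interval 9.83 to 60.2). The fitted log2 fold change of -4.42 (SE 0.94, edgeR adjusted p = 0.00712) was the lowest of any serpin, and it depends on the prior count for a population this close to 0. The gene kept its call in the 14 alternatives that tested it. The B cell marker Cd79a was at 0.666 CPM in QZ1-hi and 0.754 in QZ1-lo and was not called (-0.18, SE 0.79, edgeR adjusted p = 0.917). With 2 to 38 Cd79a counts in a library, this low gene cannot decide whether B cells differed. A part of B cells in the Serpina9 difference was not tested.

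Markers of vascular and stromal cells were higher alongside the higher serpins. Their counts of calls are to be read against 9.88% higher and 8.21% lower over all genes tested. The study had already reported endothelial and pericyte markers, Cdh5 and Pdgfrb among them, as upregulated in its QZ1-hi cells. In QZ1-hi 11 of 12 endothelial markers were higher, with summed levels of 1840 to 3770 CPM against 358 to 627 in QZ1-lo. Of the pericyte markers tested, 4 of 6 were higher (186 to 324 against 19.9 to 59.2 CPM), of the fibroblast markers 9 of 13 (1990 to 3350 against 566 to 1040 CPM) and of the mesothelial markers 3 of 3 (29.7 to 208 against 5.44 to 27.5 CPM). Smooth muscle markers were divided, with 1 higher and 1 lower of 3 (13.3 to 27.5 against 7.45 to 12.1 CPM), and the 3 platelet markers were higher (15.8 to 32.6 against 3.79 to 7.74 CPM). Of the 3 mast cell markers only Kit was tested, and it was higher, at 55.5 against 7.70 CPM. Cpa3 and Mcpt4 were at 0.444 and 0.0696 CPM in QZ1-hi and without a count in QZ1-lo. In the QZ1-hi libraries Cpa3 had 35, 0, 2 and 3 counts, mostly from replicate 1, and Mcpt4 had 4, 1, 0 and 1. The part of any of these markers in the serpin differences was not tested.

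Clade B serpins lack a classical secretion signal and mostly guard the inside of the cell against its own or incoming granule proteases. Of 28 listed, 12 were tested, 1 was called higher and 4 lower, with a median log2 fold change of -0.18. Over all genes tested 9.88% were higher and 8.21% lower, with a median of 0.02. Serpinb9 inhibits granzyme B, the main death protease of cytotoxic lymphocytes. It stood at 77.8, 64.8, 50.8 and 44.1 CPM in QZ1-hi and at 193, 146, 138 and 115 CPM in QZ1-lo. All QZ1-hi libraries were below all QZ1-lo libraries, with a log2 fold change of -1.32 (SE 0.20, edgeR adjusted p = 0.00119), or 2.49-fold higher in QZ1-lo. The call held in all 15 alternatives, at -1.47 to -1.16 when 1 library was left out, and 0.4% of its stretches of 50 bases occur in another gene.

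Granzyme B itself (Gzmb) was at 3.44 CPM in QZ1-hi and 2.75 in QZ1-lo and was not called (0.32, SE 0.70, edgeR adjusted p = 0.824). Granzyme A (Gzma) was at 0.630 and 1.92 CPM, also without a call (-1.60, SE 0.80, edgeR adjusted p = 0.216).

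Serpinb9d and Serpinb9g are rodent relatives of Serpinb9 in the same chromosome 13 cluster, and both were lower at low levels. Serpinb9d stood at 0.466, 0.395, 0.925 and 0.238 CPM in QZ1-hi and at 2.98, 2.08, 1.88 and 1.35 CPM in QZ1-lo (-2.03, SE 0.58, edgeR adjusted p = 0.0317). Serpinb9g stood at 0.508, 0.148, 0.463 and 0.536 CPM in QZ1-hi and at 2.80, 2.56, 1.59 and 1.23 CPM in QZ1-lo (-2.30, SE 0.60, edgeR adjusted p = 0.0207). Neither gene had overlapping libraries. The Serpinb9d call was lost in limma-voom (-2.12, adjusted p = 0.051) and in edgeR without QZ1-hi replicate 1, 2 or 4 or QZ1-lo replicate 1 or 2 (adjusted p = 0.0692 to 0.115, log2 fold change -2.03 to -1.77). The Serpinb9g call was lost in limma-voom (-2.34, adjusted p = 0.0513) and in edgeR without QZ1-lo replicate 1 or 2 (adjusted p = 0.0626 to 0.0746, log2 fold change -2.17 to -2.10). Their counts are uncertain as to which copy they belong to, since 30.8% of the stretches of 50 bases of Serpinb9d and 54.8% of those of Serpinb9g also occur in other genes, mostly Serpinb9e and Gm11397.

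Their start regions, and that of Serpinb9, are printed from RefSeq (GRCm38.p6) because these 3 genes were the tested members of the Serpinb9 group and all were lower. Serpinb9d and Serpinb9g could pass the low-count filter only through QZ1-lo, where they are high. Their common direction is therefore no support for a trait of the group. Serpinb9d is at chr13:33192705-33193004, Serpinb9g at chr13:33484540-33484839 and Serpinb9 at chr13:33004291-33004590, all on the plus strand. Capitals mark bases of Serpinb9g not matched to Serpinb9d, and in Serpinb9 a match to the interferon response motif GAAANNGAA.
Serpinb9d: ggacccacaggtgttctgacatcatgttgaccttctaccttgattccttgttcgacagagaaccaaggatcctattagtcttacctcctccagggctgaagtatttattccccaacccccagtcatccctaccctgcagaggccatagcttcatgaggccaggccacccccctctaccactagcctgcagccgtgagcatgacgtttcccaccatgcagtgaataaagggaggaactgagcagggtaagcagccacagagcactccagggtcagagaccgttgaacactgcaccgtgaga
Serpinb9g: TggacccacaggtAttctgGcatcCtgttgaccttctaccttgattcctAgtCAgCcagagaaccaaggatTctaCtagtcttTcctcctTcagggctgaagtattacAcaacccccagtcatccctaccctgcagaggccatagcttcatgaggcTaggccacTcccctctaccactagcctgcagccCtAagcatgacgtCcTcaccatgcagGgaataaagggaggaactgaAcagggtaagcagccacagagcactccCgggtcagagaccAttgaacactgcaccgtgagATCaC
Serpinb9: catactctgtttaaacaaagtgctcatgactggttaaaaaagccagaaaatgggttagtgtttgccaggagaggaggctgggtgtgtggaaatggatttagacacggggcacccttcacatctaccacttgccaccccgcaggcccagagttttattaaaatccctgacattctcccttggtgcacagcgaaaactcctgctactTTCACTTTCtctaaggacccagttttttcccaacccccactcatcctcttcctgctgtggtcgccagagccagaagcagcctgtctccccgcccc
Serpinb9d and Serpinb9g were 89.5% identical, with 22 mismatches and 10 gap columns, against a median of 49.5% over the 28 pairs of 8 Serpinb9 genes. The pair does not stand apart. Serpinb9g was also 93.4% identical to Serpinb9e and 89.1% to Serpinb9f, which were too low to test. GAAANNGAA, searched on both strands, had no match in the other 2 and occurs in 8.56% of all promoters. Of the 63 serpin promoters 15.9% have it, including those of the uncalled Serpinb6a.

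Further Serpinb9 genes were too low to test and are given as counts. Serpinb9h had 3, 1, 1 and 3 counts in QZ1-hi and 14, 13, 7 and 14 in QZ1-lo, a scaled ratio of 4.24 toward QZ1-lo (95% counting interval 1.99 to 10.4). Serpinb9f had 6 counts in QZ1-hi and 41 in QZ1-lo, Serpinb9b 20 and 30, and Serpinb9e 0 and 2. Serpinb9c had none. Of the stretches of 50 bases of Serpinb9h, 81.5% also occur in other genes, mostly Serpinb9f, and 78.7% of those of Serpinb9f do. Which copy the counts of Serpinb9h and Serpinb9f belong to is therefore uncertain, and the counting interval does not cover this.

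Serpinb6b, an inhibitor of granzyme A in the mouse, was lower by less and with little spread. It stood at 60.6, 64.5, 46.0 and 45.6 CPM in QZ1-hi and at 103, 97.3, 88.1 and 88.8 CPM in QZ1-lo. The populations were apart, at a log2 fold change of -0.80 (SE 0.14, edgeR adjusted p = 0.00261), and the call held in all 15 alternatives. Serpinb6a, the counterpart of human SERPINB6 and an inhibitor of cathepsin G, was at 103 ± 13.9 CPM in QZ1-hi and 101 ± 5.03 in QZ1-lo and was not called (0.03, SE 0.12, edgeR adjusted p = 0.905). There were 0.639, 0.695, 0.448 and 0.371 Serpinb6b counts per Serpinb6a count in QZ1-hi and 0.952, 0.974, 0.915 and 0.886 in QZ1-lo. The ratio was lower in every QZ1-hi library (two-sided exact permutation test, p = 0.0286, adjusted p = 0.0381). It was also chosen with earlier results known, so the p-value adds no independent support. Of the exon bases of Serpinb6a, 29.3% overlap genes on the opposite strand (Nqo2, Ripk1 and 1110046J04Rik), so its level may hold their reads if the counting ignored strand. Serpinb6c was at 3.38 and 4.26 CPM and was not called (-0.33, SE 0.33, edgeR adjusted p = 0.572).

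Serpinb1a was the clade B gene called in the other direction. Its product inhibits neutrophil elastase, cathepsin G and proteinase 3. It stood at 8.73, 10.2, 16.1 and 10.7 CPM in QZ1-hi and at 2.24, 7.04, 3.91 and 6.59 CPM in QZ1-lo, without overlap (1.21, SE 0.35, edgeR adjusted p = 0.0342). The call was lost with library size alone (0.81, adjusted p = 0.102) and without QZ1-hi replicate 2, 3 or 4 or QZ1-lo replicate 1 or 3 (adjusted p = 0.054 to 0.12, log2 fold change 0.97 to 1.27). Its target proteases were at or near 0 in both populations, with neutrophil elastase (Elane) at 0 and 0.0102 CPM, proteinase 3 (Prtn3) at 0.0434 and 0.151 CPM, and cathepsin G (Ctsg) without a count. Serpinb1b (0.568 and 0.583 CPM, edgeR adjusted p = 0.99) and Serpinb1c (0.679 and 0.428 CPM, edgeR adjusted p = 0.594) were not called.

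Of the remaining clade B genes tested, Serpinb8, an inhibitor of furin, was at 3.0 ± 0.337 and 2.58 ± 0.750 CPM (SD, n = 4) and was not called (edgeR adjusted p = 0.753). Serpinb5, or maspin, which does not act as a protease inhibitor, was at 0.636, 0.395, 0.578 and 0.655 CPM in QZ1-hi and at 0.835, 0.895, 1.48 and 0.778 CPM in QZ1-lo. No libraries overlapped, but it was not called (-0.81, SE 0.57, edgeR adjusted p = 0.403). Serpinb12 missed the filter with 24 counts in QZ1-hi (0, 3, 15 and 6) and 114 in QZ1-lo (7, 32, 66 and 9), where libraries overlapped.

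Epithelial markers were mostly lower alongside the lower clade B serpins. Over all genes tested 8.21% were lower and 9.88% higher. Of 12 alveolar and airway epithelial markers 8 were lower and 1, Sftpc, was higher, with summed levels of 5480 to 9820 CPM in QZ1-hi and 6400 to 9480 in QZ1-lo that overlapped. All 3 ciliated cell markers were lower (18.0 to 51.4 against 95.5 to 185 CPM). Leukocyte markers were not called in either direction (447 to 1150 against 437 to 824 CPM), although the sort had excluded CD45, whose gene Ptprc was at 131 and 125 CPM. Of these 8 leukocyte markers, edgeR, DESeq2 and limma each called 0, and 0 had an unadjusted edgeR p under 0.05. Which cells hold the granzyme inhibitors cannot be told from these bulk libraries. The part of any of these in the serpin differences was not tested.

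Serpinh1 and Serpinf1, which do not inhibit proteases, were both higher. Serpinh1, known as HSP47, is a chaperone of the endoplasmic reticulum that binds folded procollagen and escorts it to the Golgi. It stood at 208, 228, 214 and 120 CPM in QZ1-hi and at 81.6, 80.1, 106 and 52.8 CPM in QZ1-lo, and 1 QZ1-hi library lay close to the top of the QZ1-lo range without reaching it. The log2 fold change was 1.26 (SE 0.23, edgeR adjusted p = 0.00341), or 2.40-fold. It was lost only with library size alone (0.83, adjusted p = 0.0543) among 15 alternatives.

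Of 14 genes of procollagen chains, collagen-modifying enzymes and retrieval receptors, all were tested and 10 were higher, where 9.88% of all genes were, with 0 lower by edgeR, DESeq2 or limma and 0 at an unadjusted edgeR p under 0.05, at a median log2 fold change of 0.85. Fibrillar chains had larger fold changes than their chaperone, with Col1a1 at 3.26 (SE 0.54, edgeR adjusted p = 0.00185), Col1a2 at 3.54 (SE 0.67, adjusted p = 0.00367), Col3a1 at 3.52 (SE 0.62, adjusted p = 0.00243), Col5a1 at 3.16 (SE 0.42, adjusted p = 0.000618) and Col5a2 at 3.21 (SE 0.40, adjusted p = 0.000452). The basement membrane chains Col4a1 (0.92, SE 0.25, adjusted p = 0.0262) and Col4a2 (0.76, SE 0.22, adjusted p = 0.0320) had smaller ones, with Col6a1 at 1.24 (SE 0.17, adjusted p = 0.000707). The collagen lysyl hydroxylase Plod1 was at 0.77 (adjusted p = 0.0237) and Kdelr2, which returns Serpinh1 to the endoplasmic reticulum, at 0.53 (adjusted p = 0.0128). Col1a1 had 2.21, 2.93, 3.30 and 3.04 counts per Serpinh1 count in QZ1-hi and 0.477, 1.10, 0.863 and 0.203 in QZ1-lo. The ratio was higher in every QZ1-hi library (two-sided exact permutation test, p = 0.0286, adjusted p = 0.0381). It was also chosen with earlier results known, so the p-value adds no independent support.

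Serpinf1 encodes pigment epithelium-derived factor, a secreted protein known to restrain blood vessel growth. In the study Serpinf1 is also a marker gene of adventitial fibroblasts, and as a serpin it was left out of the fibroblast markers here. It stood at 31.9, 39.3, 64.6 and 27.8 CPM in QZ1-hi and at 5.63, 4.52, 6.91 and 3.27 CPM in QZ1-lo. The lowest QZ1-hi library was several times the highest QZ1-lo library, and the log2 fold change was 3.0 (SE 0.31, edgeR adjusted p = 0.000263), or 8.01-fold, the smallest adjusted p of any serpin. The call held in all 15 alternatives, at 2.67 to 3.18 when 1 library was left out. Of its described receptors, Plxdc2 was higher (2.01, SE 0.23, edgeR adjusted p = 0.000332), while Plxdc1 (0.52, adjusted p = 0.341), Pnpla2 (-0.18, adjusted p = 0.367) and Rpsa (-0.28, adjusted p = 0.261) were not called.

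**Figure D3:**
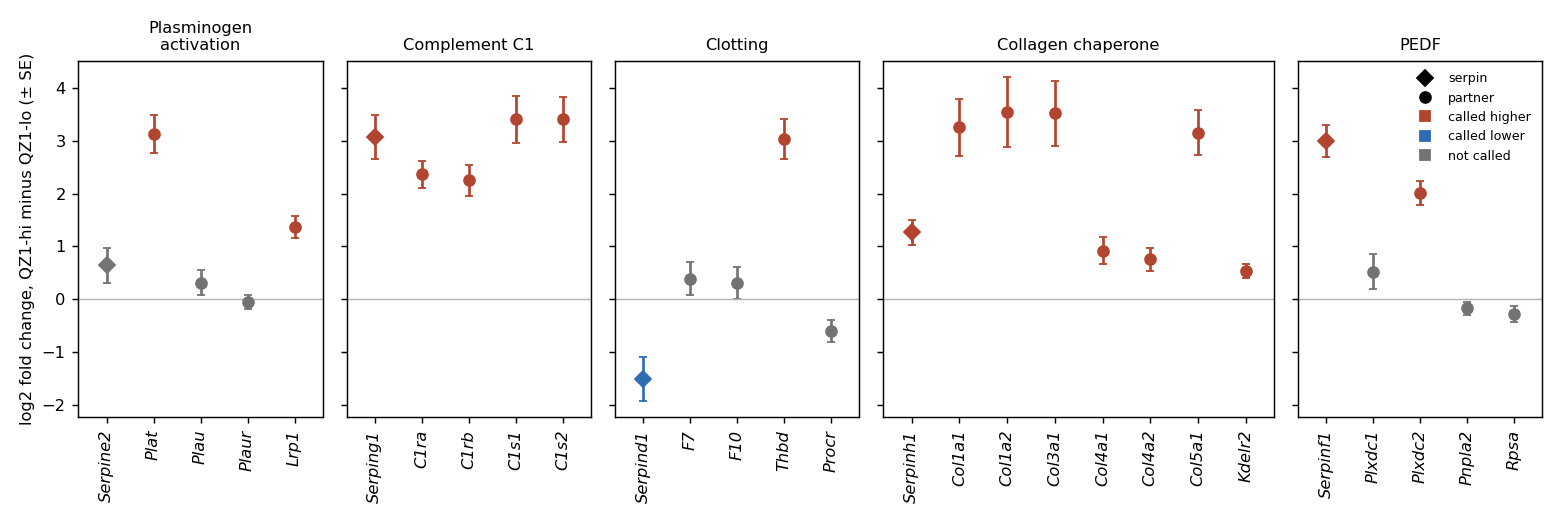
Log2 fold change (QZ1-hi minus QZ1-lo, with SE) of serpins (diamonds) and genes of their proteases, receptors or clients (circles), colored by edgeR's call. Serping1 at 3.08 sits among its 4 complement targets at 2.25 to 3.41, Serpinh1 at 1.26 lies below Col1a1 at 3.26, and Serpind1 at -1.51 is the only gene shown that was called lower.

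Across the wider lists, 33 proteases that serpins inhibit were listed, 20 were tested, 5 were higher (the tPA and C1 genes above) and 2 were lower, against 9.88% and 8.21% of all genes tested, at a median log2 fold change of 0.38 against 0.02 over all genes. The lower ones were the epithelial membrane proteases St14, or matriptase (-1.35, SE 0.21, edgeR adjusted p = 0.00134), and Prss8, or prostasin (-0.83, SE 0.24, adjusted p = 0.0361). The abundant cysteine cathepsins Ctss, Ctsl and Ctsk, targets of Serpina3g-type inhibitors, were not called (edgeR adjusted p = 0.463, 0.229 and 0.612). Of 16 cofactors and receptors, 14 were tested, 7 were higher and 1 was lower, at a median of 0.45, to be read against the same shares of all genes. Lrp1, the main receptor that clears serpin-protease complexes, was higher at 527 against 204 CPM (1.37, SE 0.21, edgeR adjusted p = 0.0011), as were Vldlr (1.23, adjusted p = 0.00544), Lrp2 (0.49, adjusted p = 0.0286), the receptor chaperone Lrpap1 (0.40, adjusted p = 0.0443) and the heparan sulfate proteoglycan Hspg2 (1.14, adjusted p = 0.00703). The sorting receptor Sorl1 was lower (-0.93, SE 0.14, adjusted p = 0.00109).

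**Figure D4:**
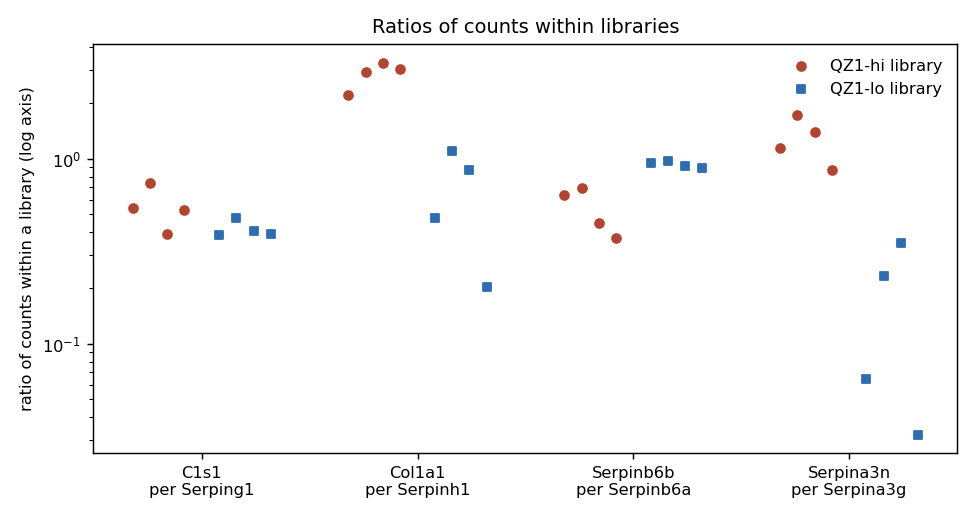
Ratio of 2 genes' counts within each library (log axis), with QZ1-hi libraries as circles and QZ1-lo libraries as squares. The populations are apart for Col1a1 per Serpinh1 (2.21 to 3.30 against 0.203 to 1.10), Serpinb6b per Serpinb6a and Serpina3n per Serpina3g, and overlap for C1s1 per Serping1 (0.389 to 0.737 against 0.388 to 0.476).

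Most serpins lie in 3 clusters of neighboring copies. Their counts of calls are to be read against 9.88% higher and 8.21% lower over all genes, and the clusters were not tested against each other. The clade A cluster at chr12:103616675-104414334 (GRCm38.p6, the assembly that mm10 names) holds 25 listed serpins, of which 9 were tested, 2 were higher and 1 was lower. The clade B cluster at chr13:32842092-34002794 holds 16, of which 9 were tested, 1 was higher and 4 were lower. Nqo2, another protein-coding gene inside it (log2 fold change 0.10), and Ripk1, which overlaps only its edge (0.36), were not called. The clade B cluster at chr1:106861175-107608978 holds 12, of which 3 were tested and none was called by edgeR, DESeq2 or limma, nor had any an unadjusted edgeR p under 0.05. Within the chromosome 13 cluster the called genes did not form a single block, since Serpinb1a and Serpinb6b, the called genes nearest one end of it, had opposite signs.

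**Figure D5:**
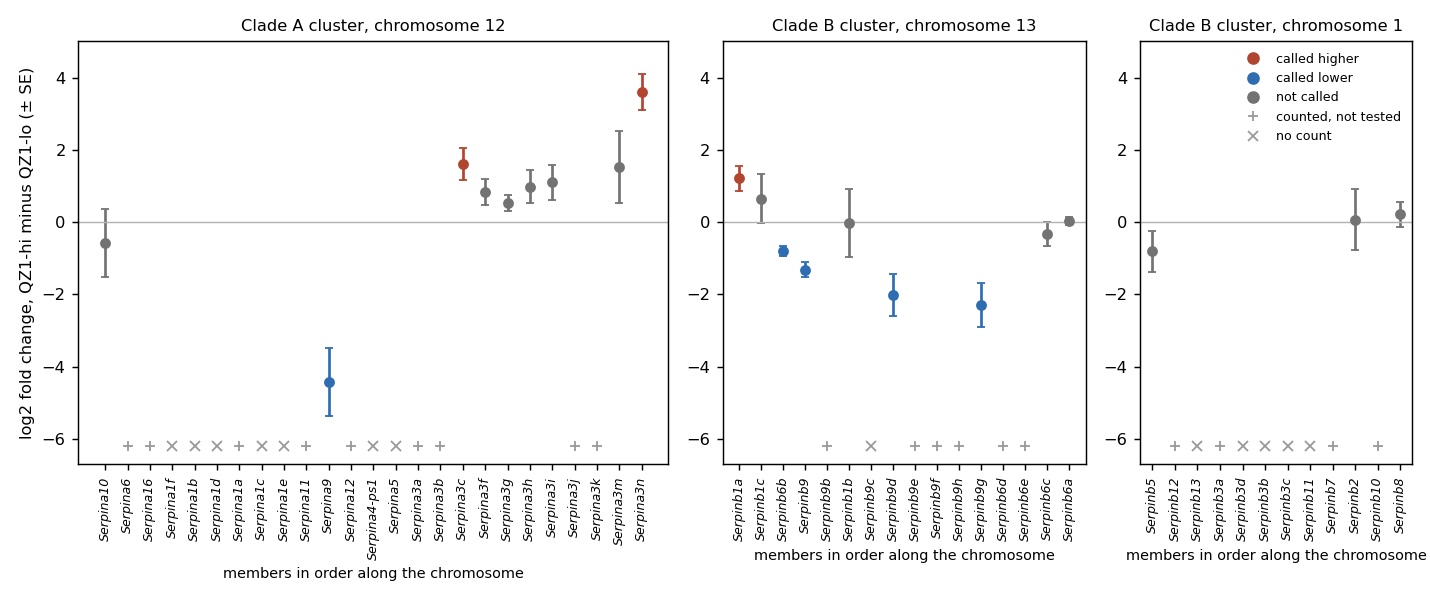
Log2 fold change (QZ1-hi minus QZ1-lo, with SE) of serpins in order along 3 chromosomal clusters, colored by edgeR's call, with untested genes as plus signs and uncounted genes as crosses at the bottom. Serpina3 genes from Serpina3c to Serpina3n all lie above 0 (0.52 to 3.59) where tested, the 3 tested Serpinb9 genes lie between -2.30 and -1.32, and no gene of the chromosome 1 cluster was called.

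The serpins without a count were Serpina1b, Serpina1c, Serpina1d, Serpina1e, Serpina1f, Serpina4-ps1, Serpina5, Serpinb3b, Serpinb3c, Serpinb3d, Serpinb9c, Serpinb11, Serpinb13 and Serpini2. Serpina1a to Serpina1e encode alpha-1-antitrypsin, the major plasma inhibitor of neutrophil elastase, which is made in the liver. Of their stretches of 50 bases, 29.5% (Serpina1b) to 79.3% (Serpina1c) also occur in other genes. How reads that match several copies were counted is not given in the sources used here, so such reads may be missing. The one Serpina1 gene that was counted, Serpina1a, had 1 count in all 8 libraries. The 3 hepatocyte markers summed to 0.543 to 2.72 CPM in QZ1-hi and 0.123 to 2.28 in QZ1-lo, most of it from Alb (albumin), which was not called. A count of 0 allows up to 3 counts in a library, or 0.0894 to 0.179 CPM.

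The other serpins that missed the filter had at most 138 counts in all. Neuroserpin (Serpini1), an inhibitor of tPA, had 62 counts in QZ1-hi and 21 in QZ1-lo, with libraries from 3 to 34 and from 0 to 11 that overlapped. Serpine3 had 22 and 29, Serpinf2, or alpha-2-antiplasmin, 10 and 7, Serpinb10 18 and 23, and Serpinb7 13 and 0, with 2 of the 4 QZ1-hi libraries at 0. The hormone carriers Serpina6, for corticosteroids, and Serpina7, for thyroxine, had 3 and 1 and 3 and 3 counts. Serpina11 had 3 and 8, Serpina12 0 and 11, the latter all in QZ1-lo replicate 2, Serpina16 2 and 0, Serpinb3a 4 and 0, Serpinb6d 6 and 4, and Serpinb6e 7 and 1.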

How the data were processed

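Counts were deposited by the authors as whole reads on each of 27179 Entrez Gene identifiers, unnormalized and obtained with Rsubread, in 4 QZ1-hi and 4 QZ1-lo libraries. Libraries were prepared with a SMARTer stranded total RNA kit, per the labels. The submitters' processing notes name the mm10 build and DESeq2. The aligner, annotation and strand setting of the counting are not given in the sources used here. Populations were taken from the sample labels, and total counts were 18380918 to 26847938 per library.

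Symbols were matched through RefSeq (GRCm38.p6) for 25275 identifiers and GENCODE M21 for 18, and 1886 had none. The populations were compared with edgeR 4.0.16 in R 4.3.3 (TMM, filterByExpr with a minimum count of 10 and a minimum total count of 15, quasi-likelihood test, population as the only term) over 15583 genes, with Benjamini-Hochberg adjustment and a threshold of 0.05. The SE was obtained from the fold change and its F statistic, as |log2 fold change| / √F. Values with 1 number per library, such as ratios, were tested by exact permutation, two-sided. The procedure was tested on simulated data, but the outcome is not reported here and no support is drawn from it. Reads carry no molecular identifiers, so counting intervals cover counting error only.

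Exon length and the share of 50-base stretches found in other genes came from GENCODE M21, with length taken over the union of a gene's exons. Promoters were aligned globally (match 1, mismatch -1, gap -2) and searched for 7 motifs.

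Every serpin that passed the filter was named with its values, and others with their counts, except for 1 that is not reported here. Of the lists of proteases, cofactors and receptors, and procollagen partners, called genes and best known partners were named, and of the marker lists at most 3 genes each. The members, lists and ratios were chosen with earlier results of these data known. Alternatives were the Wald test of DESeq2 1.42.0, voom in limma 3.58.1, DESeq2 size factors, library size alone, no filter (genes with at least 1 count), at least 10 counts in every library, removal of mitochondrial-genome and ribosomal RNA genes, and each library left out in turn.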

Additional observations from a re-analysis of the deposited data

Results flagged for a closer look

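In 3 of 54 groups of 4 libraries (27 tested serpins in 2 populations), 1 library stood so far from the other 3 that its gap to them, as a share of the group's range, exceeded Dixon's critical value for 4 samples. Chance gives such a gap in about 5% of groups. Serpina3c was at 3.34 CPM in QZ1-hi replicate 4 and at 1.93 to 2.02 CPM in the other QZ1-hi libraries (gap 0.931 of the range). Serpina3g was at 91.2 CPM in the same library and at 57.6 to 62.4 CPM in the others (0.859). Serpinb5 was at 1.48 CPM in QZ1-lo replicate 3 and at 0.778 to 0.895 CPM in the remaining ones of that population (0.834). Without QZ1-hi replicate 4 the log2 fold change was 1.41 for Serpina3c and 0.38 for Serpina3g, and without QZ1-lo replicate 3 it was -0.56 for Serpinb5.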

How the results depend on the processing

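Of the 27 tested serpins, Serpina3n, Serping1, Serpinf1, Serpinb9, Serpinb6b and Serpina9 kept their call in every alternative that gave a value. Serpina9, Serpinb9d and Serpinb9g were not tested when at least 10 counts were required in every library. The count of serpins called higher, 7, fell to 3 with library size alone. The count called lower, 6, fell to 3 with limma-voom and to 3 with at least 10 counts in every library, and was 3 to 6 when 1 library was left out, with 3 without QZ1-lo replicate 1. Of the genes of the 3 pathway lists, 22 were higher and 3 lower, against 14 and 5 with library size alone. Over all genes library size alone gave 882 higher and 2509 lower calls in place of 1540 and 1280.

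The sign turned for 4 uncalled serpins. For Serpinb2 (0.07) it was -0.41 with library size alone, -0.42 with limma-voom and -0.57 to 0.49 with 1 library left out. For Serpinb8 (0.21) it was -0.30 with library size alone. For Serpinb1b (-0.03) it was 0.93 with limma-voom and -0.44 to 0.35 with 1 library left out. For Serpinb6a (0.03) it was -0.46 with library size alone and -0.037 to 0.071 with 1 library left out. Library size alone moved the median over all genes from 0.02 to -0.44. The cause of these changes was not tested.

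No paired analysis was possible because the labels give neither a mouse nor a replicate number, and replicates are numbered in accession order. With 4 libraries a population, Serpina3c, Serpinb9d, Serpinb9g and Serpind1, with few counts, lost their call in some of these fits, but so did the more abundant Serpinb1a, while Serpina9, also low, kept it.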
